A study of Rattus norvegicus with 6 samples.

Results

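The 10 genes described here encode matricellular and structural proteins of the cardiac extracellular matrix. They are the thrombospondins Thbs1 and Thbs4, tenascin C (Tnc), osteopontin (Spp1), periostin (Postn), the secreted acidic cysteine-rich protein gene Sparc, fibronectin (Fn1), lysyl oxidase (Lox), decorin (Dcn) and lumican (Lum). They were taken by symbol from a table of 30452 genes, and all 10 were found. The RNA came from myocardium of wild-type (WT) male rats. In the MI/RI group (myocardial ischemia and reperfusion injury, labelled I/R), a ligature closed the left anterior descending branch of the coronary arteries for 30 min and was then released for 6 h of reperfusion. Sham rats had a sham operation according to the study's methods, although their labels carry the same times. The methods mention PBS given by vein to both groups in a treatment experiment, and whether the sequenced rats received it is not stated. Each group had 3 samples. The labels give the same surgical protocol, a thoracotomy under anesthesia and ventilation with coronary ligation, for all 6 samples and do not describe the sham operation. Strain and age are not given in the sources used here. The labels do not say which region of the heart was sampled relative to the ischemic area, nor whether the 3 samples of a group were 3 separate rats, so the p-values measure the spread between these samples, which may be partly technical.

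Matricellular proteins are secreted into the matrix but do not build its fibres. They bind integrins, syndecans, growth factors and proteases and change how cells attach and respond, and several of them are known for low levels in the healthy adult heart and high levels after injury. Fibronectin is the provisional scaffold on which other matrix is laid down, lysyl oxidase cross-links collagen and elastin, and decorin and lumican are small leucine-rich proteoglycans that coat collagen fibrils and space them. In the heart, fibroblasts are the main source of the structural members, and thrombospondin 1 is also stored in platelets.

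The promoters of 3 genes are shown first, and their part in the differences between the groups was not tested. Thbs1 and Ccn1 carried the widest gaps between the groups among the matricellular genes. Sparc was the most abundant of the 10, with nearly the same level in both groups in the values as deposited. Under other scalings of the libraries, given below, its level differed more. The sequences are the 250 bases before the annotated start of each gene, on its own strand, from RefSeq on the rat build GRCr8. Capitals mark GGAATG, the core motif of TEAD factors, or its reverse complement CATTCC.
Thbs1, chr3:125510000-125510249, plus strand: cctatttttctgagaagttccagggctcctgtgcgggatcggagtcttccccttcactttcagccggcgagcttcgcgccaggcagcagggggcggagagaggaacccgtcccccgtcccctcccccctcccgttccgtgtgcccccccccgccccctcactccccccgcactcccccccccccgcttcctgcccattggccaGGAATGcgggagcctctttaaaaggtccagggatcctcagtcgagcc
Ccn1, chr2:237225690-237225939, minus strand: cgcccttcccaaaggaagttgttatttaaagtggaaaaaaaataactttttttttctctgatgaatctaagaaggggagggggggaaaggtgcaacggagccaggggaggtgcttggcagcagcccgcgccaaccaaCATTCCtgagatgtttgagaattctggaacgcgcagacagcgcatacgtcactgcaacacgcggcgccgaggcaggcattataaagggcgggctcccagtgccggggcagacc
Sparc, chr10:40038817-40039066, minus strand: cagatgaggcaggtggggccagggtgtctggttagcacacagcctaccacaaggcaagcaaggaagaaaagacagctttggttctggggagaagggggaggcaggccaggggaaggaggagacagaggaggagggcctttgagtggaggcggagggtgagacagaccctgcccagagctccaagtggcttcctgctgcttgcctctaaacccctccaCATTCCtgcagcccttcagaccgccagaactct

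RefSeq promoters of 300 bases, from 250 before to 50 after the start, were at hand for 7 of the 10 genes, which left Fn1, Lox and Dcn without one. Each was searched on both strands for the TEAD core GGAATG, the AP-1 motif written TGANTCA, the NF-Y motif CCAAT, the motif of the TATA box, TATAAA, and the CArG box (by name alone). None of these contains another. GGAATG began 47 bases before the start in Thbs1. Its reverse complement began 113 bases before the start in Ccn1, 33 in Sparc and 178 in Thbs4. The motif was present in 14.2% of all 33469 rat promoters of this length, and it stood in the promoter of Sparc as in that of Thbs1. CCAAT, which 37.5% of the promoters hold, was found on the opposite strand 55 bases before the Thbs1 start and 130 bases before that of Lum. TATAAA, held by 14.2%, was found 44 bases before the start in Postn, 204 in Spp1, 208 in Tnc and 34 in Ccn1. Ccn2, a gene related to Ccn1 and described further on, had GGAATG 166, 101 and 92 bases and TATAAA 31 bases before its start. The AP-1 motif (7.33% of promoters) and the CArG box (1.64%) were found in none of the 7 windows. A match is a run of letters and shows no binding.

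Expression was measured by RNA-seq as FPKM, fragment numbers divided by transcript length and by library size, which allows levels of different genes to be set side by side. The summed FPKM was 894902 to 928941 in the sham samples and 731063 to 825490 in the MI/RI samples. The 13 mitochondrially encoded mRNAs took 80.1% to 86.2% of it in sham and 61.8% to 71.5% in MI/RI. The other genes together thus took a larger share in MI/RI. The median log2 fold change (MI/RI minus sham, on log2(FPKM + 0.1)) of the 10942 genes tested was 0.29. Scaling moved that median, to 0.48 for TPM, -0.02 after quantile normalization and -0.46 when the mitochondrial mRNAs were left out of the scaling. In a bulk sample, a smaller share of cells of a type and less RNA per cell cannot be told apart.

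Of the 10 genes, Thbs1 rose and no other passed the test, with none lower. Thbs1 was 41.5-fold higher, while Sparc, Dcn, Fn1 and Lox lay at nearly the same FPKM in both groups. The mean FPKM was higher in MI/RI for all 10, which is a statement on this scale. The test could be run on 8 of the 10, because Thbs4 and Tnc had a mean under 0.5 FPKM. At an adjusted p under 0.05 (limma, Benjamini-Hochberg over all genes tested), 1 of these 8 was called higher and 0 lower. Across all genes tested, 25.5% were called higher and 7.36% lower. The median log2 fold change of the 8 was 0.43.

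**Figure D1:**
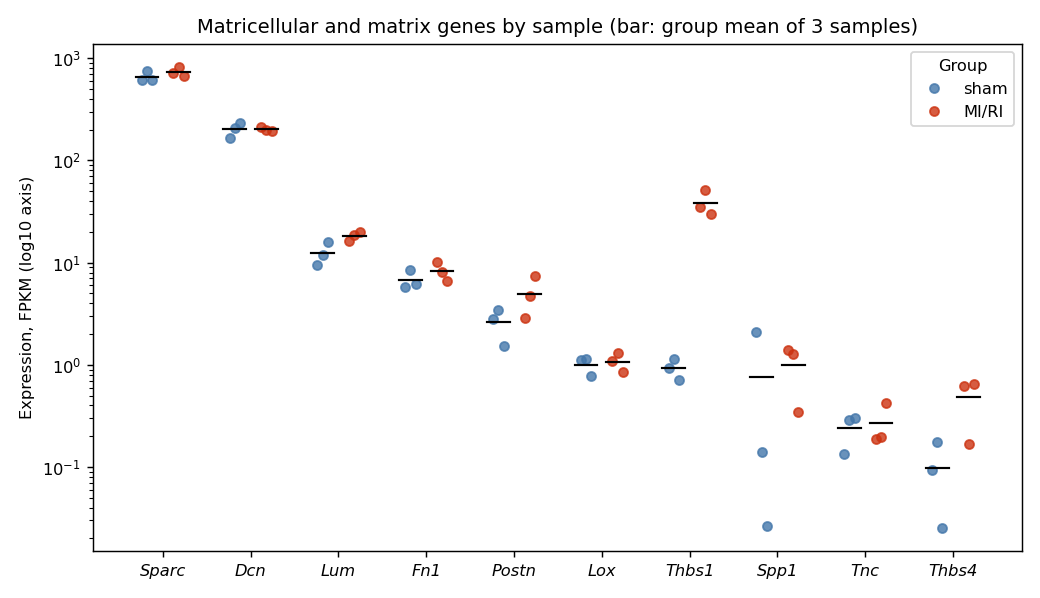
Level of each of the 10 genes in every sample, in FPKM on a log10 axis, with sham samples in blue, MI/RI samples in red and a bar at the mean of the 3 samples of a group. Thbs1 moves from 0.716 to 1.14 FPKM in sham to 30.2 to 50.9 FPKM in MI/RI, while the groups of every other gene except Lum overlap.

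Thbs1 (ENSRNOG00000045829) encodes thrombospondin 1, a trimeric glycoprotein that binds CD47 and integrins and activates latent TGF-beta. Its level was 0.936, 1.14 and 0.716 FPKM in sham samples 1 to 3 and 34.8, 50.9 and 30.2 FPKM in MI/RI samples 1 to 3. Every MI/RI sample lay far above every sham sample. The mean was 0.931 ± 0.213 FPKM (SD, n = 3) in sham and 38.6 ± 10.9 FPKM (SD, n = 3) in MI/RI, 41.5-fold apart. On the log2 scale this was a change of 5.22 (SE 0.27, 95% interval 4.61 to 5.82, limma adjusted p = 1.35e-05). The two-sided exact permutation test gave p = 0.1, the smallest that 3 against 3 samples allow. Of the 10942 genes tested, 5 had a larger log2 fold change. The FPKM steps of Thbs1 corresponded to at least 193 to 320 fragments in the sham samples and 6309 to 11289 in the MI/RI samples, so counting error was small in both groups. The call held under all 17 alternatives in the processing, which gave log2 fold changes of 4.33 to 5.42 and adjusted p-values up to 0.0010 in limma.

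Markers of other cell types also moved between the groups. The summed FPKM of 5 platelet markers ran from 19.6 to 68.2 in sham and from 15.2 to 59.9 in MI/RI, so the groups overlapped, and the platelet marker Gp1bb was listed at 0 in all 6 samples. The sum of 5 neutrophil markers was 12.9 to 17.7 FPKM in sham and 28.2 to 83.5 FPKM in MI/RI, and that of 7 cardiomyocyte markers 3465 to 11364 FPKM and 23353 to 33681 FPKM. Neither of these sums overlapped between the groups, and 3 of the 4 neutrophil markers tested and 6 of the 7 cardiomyocyte markers were called higher. Of all single genes tested, 25.5% were called higher and 37.2% did not overlap and were higher. After quantile normalization, 1 of the 4 neutrophil and 6 of the 7 cardiomyocyte markers were called higher, against 13.2% of all genes tested. Without the mitochondrial mRNAs these counts were 2 and 5, against 7.25% of all genes tested. The sums were taken on the deposited scale only. The 6 macrophage and monocyte markers summed to 12.0 to 15.1 FPKM in sham and 15.7 to 18.1 FPKM in MI/RI, but 1 of them (Cd14) was called higher and 2 (Ccr2 and Cd163) lower, and without Cd14 the sums overlapped at 10.8 to 12.7 FPKM and 10.6 to 10.8 FPKM. The 5 smooth muscle and pericyte markers summed to 44.1 to 67.9 FPKM in sham and 79.7 to 97.3 FPKM in MI/RI, with Rgs5 called higher and Kcnj8 lower, and without Rgs5 the sums overlapped at 27.0 to 45.5 FPKM and 26.7 to 36.8 FPKM. These 5 markers were named after their values were seen. The 6 endothelial markers (173 to 224 FPKM against 175 to 206 FPKM) and the 3 mesothelial markers found (3.87 to 6.54 FPKM against 4.55 to 7.79 FPKM) overlapped. All 7 cardiomyocyte markers were detected in every sample. The part of these cell types in the rise of Thbs1 and in the differences given below was not tested.

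Thbs4 (ENSRNOG00000012471), a pentameric thrombospondin induced in muscle and heart under load, was low in all samples. Its level was 0.0937, 0.177 and 0.0254 FPKM in sham and 0.620, 0.170 and 0.655 FPKM in MI/RI. MI/RI samples 1 and 3 stood above all sham samples, and MI/RI sample 2 lay within the sham range. These values correspond to at least 4 to 29 fragments in sham and 22 to 80 in MI/RI. Without the filter on low values, in a fit over 19226 genes of which 11.4% were called higher, the log2 fold change was 1.48 (SE 0.50, 95% interval 0.30 to 2.66, limma adjusted p = 0.093). The difference did not pass the threshold (exact permutation p = 0.2).

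Tnc (ENSRNOG00000058645) encodes tenascin C, a hexameric protein known to appear at the border of infarcts. It measured 0.135, 0.288 and 0.299 FPKM in sham and 0.187, 0.199 and 0.421 FPKM in MI/RI. The groups overlapped, and no sample reached 0.5 FPKM. In the unfiltered fit the log2 fold change was 0.10 (SE 0.37, 95% interval -0.78 to 0.98, limma adjusted p = 0.88). This interval holds both falls and rises, the rises reaching nearly 1. The 6 values correspond to at least 43 to 118 fragments.

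Spp1 (ENSRNOG00000043451) encodes osteopontin, a phosphorylated ligand of alpha-v integrins and CD44 that activated macrophages secrete. Its level was 2.10, 0.141 and 0.0267 FPKM in sham and 1.39, 1.28 and 0.343 FPKM in MI/RI. Sham sample 1 was the highest of all 6, while the other 2 sham samples were the lowest. The change of 1.25 on the log2 scale therefore had a wide error (SE 0.93, 95% interval -0.83 to 3.33, limma adjusted p = 0.32). Without sham sample 1 it was 2.47 (limma adjusted p = 0.021), so that library decides the call. Sham sample 1 also had the highest sum of cardiomyocyte markers among the sham samples, 11364 FPKM against 3465 and 3916 FPKM. Whether this bears on Spp1 was not tested. The sham values of Spp1 correspond to at least 139, 11 and 2 fragments.

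Postn (ENSRNOG00000012660) encodes periostin, a marker of activated fibroblasts that promotes collagen assembly. Its level was 2.80, 3.45 and 1.54 FPKM in sham and 2.85, 4.71 and 7.32 FPKM in MI/RI. MI/RI samples 2 and 3 were above every sham sample, and MI/RI sample 1 lay between sham samples 1 and 2. Its log2 fold change was 0.88 (SE 0.38, 95% interval 0.03 to 1.73, limma adjusted p = 0.10). The call changed with the scaling and with 1 library. The log2 fold change was 1.08 (limma adjusted p = 0.043) after rescaling to TPM and 1.22 (limma adjusted p = 0.042) without MI/RI sample 1. It fell to 0.61 (limma adjusted p = 0.28) after quantile normalization and to 0.12 (limma adjusted p = 0.82) without the mitochondrial mRNAs. Without sham sample 3 it was 0.56, and without MI/RI sample 3 also 0.56.

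Sparc (ENSRNOG00000012840) encodes a calcium-binding protein, also called osteonectin, that binds procollagen and helps its processing. It was the most abundant of the 10, at 609, 756 and 615 FPKM in sham and 716, 820 and 667 FPKM in MI/RI. The groups overlapped and differed by less than the spread within them. A fit with limma put the log2 fold change at 0.16 (SE 0.24, 95% interval -0.38 to 0.70, limma adjusted p = 0.65). Its sign depended on the scaling, at -0.09 when each library was centred on its median gene, -0.63 without the mitochondrial mRNAs and -1.05 after quantile normalization, where it was called lower (limma adjusted p = 0.041).

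Fn1 (ENSRNOG00000014288), the gene of fibronectin, measured 5.80, 8.47 and 6.20 FPKM in sham and 10.04, 8.04 and 6.58 FPKM in MI/RI. MI/RI sample 1 was the highest, and the other samples of both groups were intermixed. The log2 fold change was 0.26 (SE 0.25, 95% interval -0.30 to 0.82, limma adjusted p = 0.44), and it became -0.25 and -0.51 after quantile normalization and after scaling without the mitochondrial mRNAs. With at least 2039 to 3519 fragments a sample, counting error was small beside the spread between samples.

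Lox (ENSRNOG00000014426), whose product cross-links collagen and elastin, was at 1.10, 1.14 and 0.772 FPKM in sham and 1.08, 1.29 and 0.859 FPKM in MI/RI. Both groups spanned nearly the same range. With limma the log2 fold change was 0.09 (SE 0.28, 95% interval -0.54 to 0.73, limma adjusted p = 0.82), and its sign turned under some scalings and when a library was left out. The interval holds changes of 0.5 in either direction.

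Dcn (ENSRNOG00000004554) encodes decorin, which binds collagen fibrils and TGF-beta. Its level was 166, 207 and 233 FPKM in sham and 213, 199 and 196 FPKM in MI/RI. The MI/RI samples all fell inside the sham range. The means were 202 ± 33.8 FPKM and 203 ± 8.88 FPKM (SD, n = 3 each), and the log2 fold change was 0.02 (SE 0.24, 95% interval -0.51 to 0.55, limma adjusted p = 0.96). Its value lay below the median gene at 0.29. Under other scalings it was -0.23 (centred on the median gene), -0.77 (without the mitochondrial mRNAs, limma adjusted p = 0.047) and -0.97 (quantile normalization, limma adjusted p = 0.039).

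Lum (ENSRNOG00000004610) encodes lumican, the other proteoglycan of collagen fibrils. It was at 9.43, 11.9 and 16.0 FPKM in sham and 16.4, 18.8 and 20.0 FPKM in MI/RI. The groups did not overlap, although sham sample 3 and MI/RI sample 1 were close. The log2 fold change was 0.59 (SE 0.25, 95% interval 0.03 to 1.15, limma adjusted p = 0.096; exact permutation p = 0.1). It passed the threshold after rescaling to TPM (0.79, limma adjusted p = 0.042) and had the opposite sign after quantile normalization (-0.16) and without the mitochondrial mRNAs (-0.19). Thbs1 and Lum were the 2 of 10 genes whose groups did not overlap, both higher in MI/RI, as were 37.2% of the genes tested, with 13% not overlapping and lower.

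**Figure D2:**
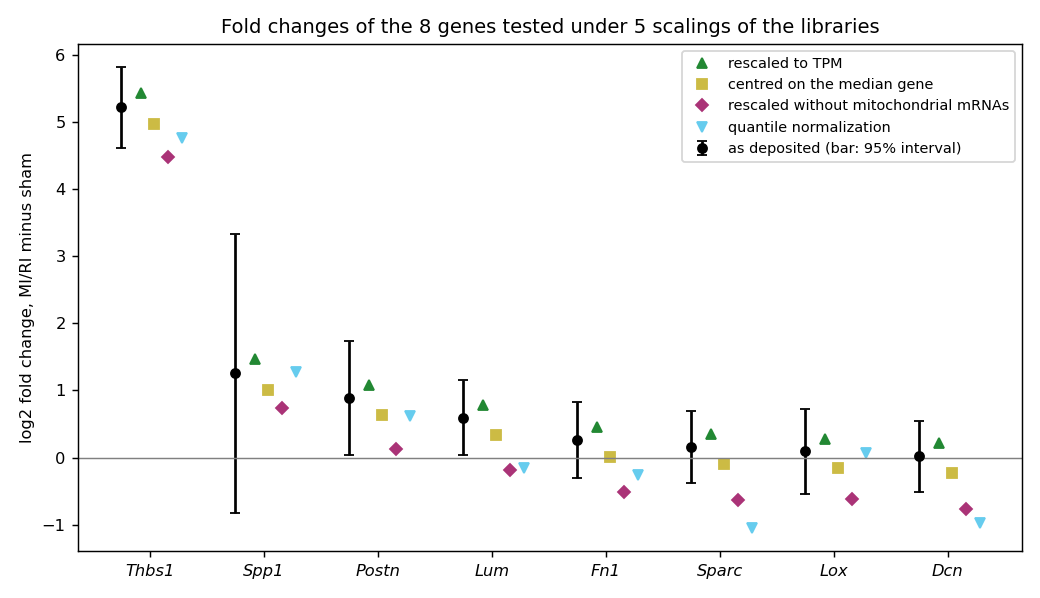
The log2 fold change (MI/RI minus sham) of the 8 genes tested, as deposited with the 95% interval as a bar, and under 4 other scalings of the libraries. Thbs1 lies above 4 under each scaling shown, whereas Lum, Fn1, Sparc, Lox and Dcn fall on both sides of 0.

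The order of the 10 genes by mean FPKM differed between the groups mainly by the place of Thbs1. In sham it ran from Sparc (660 FPKM) through Dcn (202 FPKM), Lum (12.4 FPKM), Fn1 (6.82 FPKM) and Postn (2.60 FPKM), each clear of the next by its range over the samples. Lox, Thbs1, Spp1, Tnc and Thbs4 followed, between 1.004 and 0.0987 FPKM, and neighbours among these overlapped in range. In MI/RI, Thbs1 moved from rank 7 to rank 3, above Lum (18.4 FPKM) and below Dcn (203 FPKM), without overlap with either. Fn1 (8.22 FPKM) and Postn (4.96 FPKM) overlapped in MI/RI, as did Lox, Spp1, Thbs4 and Tnc, each with the next.

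To set the 10 genes against the cells known to make most of them, each was expressed within its own sample relative to the mean log2 level of 7 fibroblast markers (Pdgfra, Tcf21, Ddr2, Col1a1, Col1a2, Col3a1 and Dpt). A difference of this kind does not depend on how the library was scaled, apart from the pseudocount and quantile normalization. The markers themselves summed to 423 to 575 FPKM in sham and 594 to 666 FPKM in MI/RI, and 2 of the 7, Tcf21 and Col1a1, were called higher and 0 lower on the deposited scale, close to the 25.5% of all genes called higher. After quantile normalization, and likewise without the mitochondrial mRNAs, 0 of the 7 were called higher and 1 lower, with medians of -0.49 and -0.50. Relative to them, Thbs1 was higher in MI/RI by 4.78 on the log2 scale, from -4.33, -4.51 and -5.00 in the sham samples to 0.09, 0.66 and -0.26 in the MI/RI samples. It thus reached the average level of the fibroblast markers. Dcn was the only other gene whose groups did not overlap on this measure, at 2.995, 2.88 and 3.15 in sham and 2.70, 2.62 and 2.44 in MI/RI, a difference of -0.42. On the same measure 12.2% of the genes tested did not overlap and were higher in MI/RI, and 29.3% did not overlap and were lower, as Dcn was. Both have an exact permutation p of 0.1, the smallest possible. The difference of Dcn stayed between -0.66 and -0.35 over 11 alternatives, all with the same 7 markers. The log2 fold changes of these markers ran from -0.36 (Pdgfra) to 1.42 (Tcf21), against 0.02 for Dcn. How far the difference of Dcn depends on the choice of markers was not tested. The differences of the remaining 8 genes ran from -0.34 (Lox and Tnc) to 1.04 (Thbs4), with overlap between the groups.

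**Figure D3:**
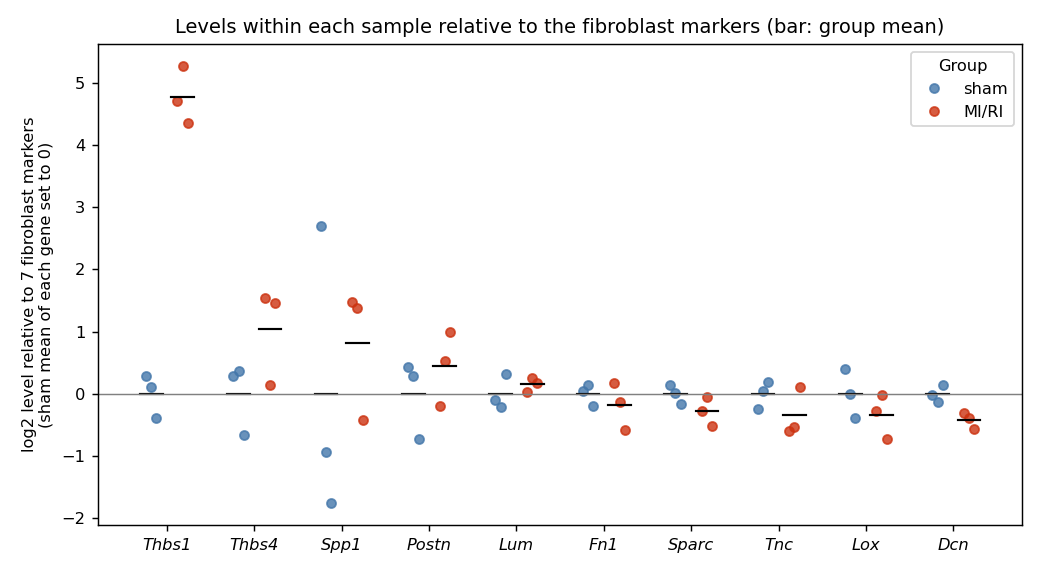
Level of each gene in each sample, as log2(FPKM + 0.1) minus the mean over 7 fibroblast markers in the same sample, shifted so that the sham mean of each gene is 0; blue points are sham, red points MI/RI and bars the group means. Thbs1 lies 4.78 above and Dcn 0.42 below its sham level, and the other genes overlap between groups.

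On the log2 scale over all 6 samples, the genes whose pattern was most like that of Thbs1 were Cfl1 (Pearson r = 0.999), Cyp51 (r = 0.999) and Rnd1 (r = 0.998), and 27 genes had an r above 0.99. For Dcn they were Slc29a2 (r = 0.986), Bet1l (r = 0.974) and Brcc3 (r = 0.966). These are descriptions over 6 libraries that fall into 2 groups, so any gene with a wide and even gap between the groups resembles Thbs1.

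The other genes of the matricellular and matrix families, their receptors and the TGF-beta axis were read from 8 lists of 75 genes, of which 71 were in the table and 53 could be tested. Of these, 20 were called higher in MI/RI and 1 lower on the deposited scale, a balance that became 4 higher and 11 lower without the mitochondrial mRNAs in the scaling and 6 higher and 7 lower after quantile normalization. Over all genes tested, 25.5% were called higher and 7.36% lower on the deposited scale, 7.25% and 26.1% without the mitochondrial mRNAs, and 13.2% and 14.2% after quantile normalization. These shares are the background for the counts of each list below. The median log2 fold change of the 53 genes was 0.54. Of the 13 genes named below by rank within their list, 4 kept their call under every alternative in which they were tested, namely Ccn1, Sdc4, Smoc2 and Omd. The other 9 lost it under 2 or more.

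Among the other thrombospondins and tenascins, 1 of the 2 genes tested was called higher. This was Thbs2, a thrombospondin that limits vessel growth, at 2.51 ± 0.306 FPKM in sham and 4.76 ± 0.369 FPKM in MI/RI (SD, n = 3 each). Its log2 fold change was 0.90 (SE 0.21, limma adjusted p = 0.012), and 0.14 without the mitochondrial mRNAs (limma adjusted p = 0.73). Its paralog Thbs1 moved 5.22 in the same samples.

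All 3 CCN proteins tested were called higher on the deposited scale, and only Ccn1 was after centring, after quantile normalization or without the mitochondrial mRNAs. Ccn1 encodes a matricellular integrin ligand of the immediate early type. It measured 8.09, 5.73 and 6.73 FPKM in sham and 126, 95.8 and 32.5 FPKM in MI/RI. All MI/RI samples were above all sham samples, with MI/RI sample 3 well below the other 2. The fold of the means was 12.4, and the log2 fold change was 3.41 (SE 0.44, limma adjusted p = 0.0022), between 2.63 and 3.998 over 17 alternatives. Ccn3 rose from 1.77 ± 0.859 to 4.07 ± 0.951 FPKM (SD, n = 3 each), with a log2 fold change of 1.22 (SE 0.32, limma adjusted p = 0.019), but lost its call under 7 of 16 alternatives. Ccn2, the connective tissue growth factor gene, named here after its values were seen, had a log2 fold change of 1.04 (limma adjusted p = 0.041). Its groups overlapped, at 18.8, 24.8 and 15.5 FPKM in sham and 49.7, 54.4 and 23.4 FPKM in MI/RI, and the call was lost under 10 of 17 alternatives.

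In the SPARC family, 1 of 4 genes tested was called higher. Smoc2, a SPARC-related calcium-binding protein, was at 0.636, 0.974 and 1.13 FPKM in sham and 2.86, 3.78 and 3.79 FPKM in MI/RI. The MI/RI samples were all above the sham samples. Its log2 fold change was 1.84 (SE 0.27, limma adjusted p = 0.0029), against 0.16 for Sparc itself, and lay between 1.10 and 2.04 over 16 alternatives. The median of the 4 was 0.20, and -0.58 without the mitochondrial mRNAs.

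Of the other small leucine-rich proteoglycans, 1 of 5 tested was called higher and 1 lower, against 0 higher and 2 lower without the mitochondrial mRNAs. Omd, the gene of osteomodulin, a keratan sulfate proteoglycan, fell from 4.37, 6.42 and 7.47 FPKM in sham to 2.47, 2.15 and 2.30 FPKM in MI/RI. No MI/RI sample reached the lowest sham sample. Its log2 fold change was -1.33 (SE 0.25, limma adjusted p = 0.0053), between -2.10 and -1.08 over 16 alternatives. Prelp, a proteoglycan that anchors basement membranes to connective tissue, had a log2 fold change of 1.06 (limma adjusted p = 0.0097), and 0.29 without the mitochondrial mRNAs (limma adjusted p = 0.40).

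Unlike Lox, 2 of the 3 other lysyl oxidases tested were called higher, though 0 were after quantile normalization or without the mitochondrial mRNAs. Loxl1, which cross-links elastin, was at 5.76, 7.08 and 5.77 FPKM in sham and 14.0, 12.6 and 12.3 FPKM in MI/RI, with no overlap. Its log2 fold change was 1.06 (SE 0.21, limma adjusted p = 0.0069) and 0.28 without the mitochondrial mRNAs (limma adjusted p = 0.43). For Loxl2 it was 0.82 (limma adjusted p = 0.033), a call that was lost under 8 of 17 alternatives. The difference between these genes and Lox was not tested.

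Of the 16 elastic fibre and fibronectin-associated genes tested, 3 were called higher and 0 lower, with a median log2 fold change of 0.34, near that of all genes tested, whereas 0 were higher and 3 lower without the mitochondrial mRNAs. Fbln1, a fibulin that binds fibronectin, had a log2 fold change of 1.0002 (limma adjusted p = 0.013), and Tgfbi, a TGF-beta-induced integrin ligand, 0.80 (limma adjusted p = 0.020). Without the mitochondrial mRNAs these were 0.22 (limma adjusted p = 0.55) and 0.03 (limma adjusted p = 0.93).

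Among receptors of the 10 proteins, 5 of 10 genes tested were called higher and 0 lower on the deposited scale (25.5% and 7.36% of all genes), and 1 higher and 2 lower without the mitochondrial mRNAs. Sdc4 encodes syndecan 4, a heparan sulfate co-receptor for fibronectin and thrombospondin. It was at 3.13, 1.71 and 1.96 FPKM in sham and 10.6, 16.5 and 13.6 FPKM in MI/RI. The groups stood well apart, with a log2 fold change of 2.55 (SE 0.28, limma adjusted p = 0.0011) and a range of 1.79 to 2.80 over 17 alternatives. Itgb3, the beta chain of an integrin that binds osteopontin, fibronectin and thrombospondin, had 1.73 (SE 0.58, limma adjusted p = 0.045) with overlapping groups, and lost its call under 9 of 16 alternatives.

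In the TGF-beta axis and the matrix-processing enzymes, 4 of 10 genes tested were called higher and 0 lower, and 1 higher and 3 lower without the mitochondrial mRNAs. P4hb, a subunit of the enzyme that hydroxylates collagen prolines, had a log2 fold change of 1.02 (limma adjusted p = 0.011), and 0.23 without the mitochondrial mRNAs (limma adjusted p = 0.49).

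**Figure D4:**
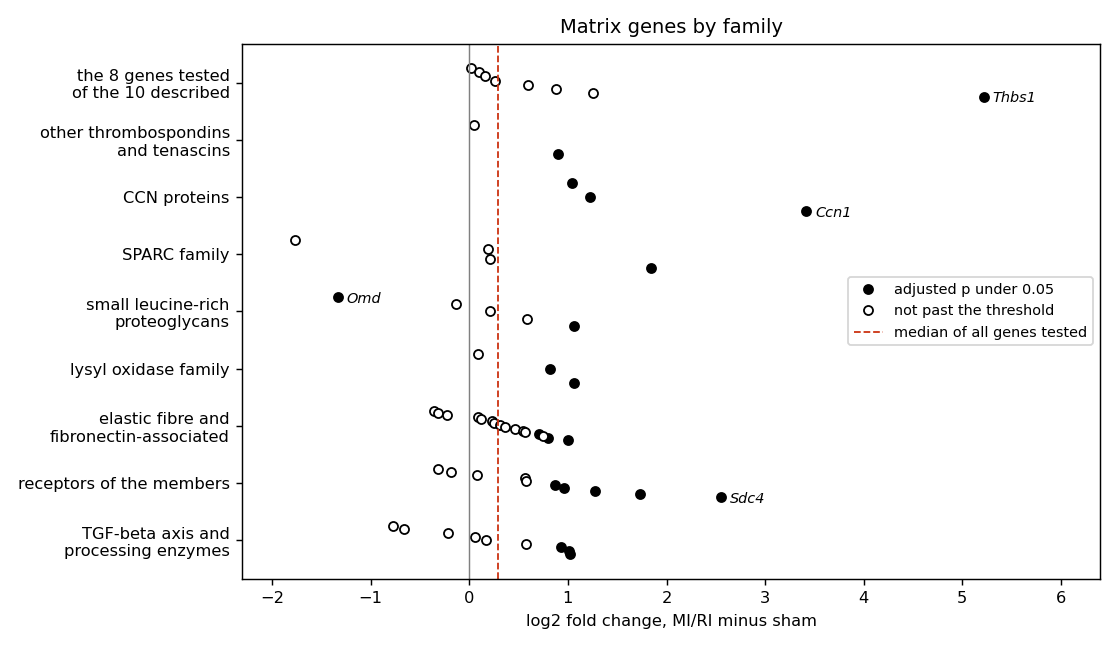
The log2 fold change (MI/RI minus sham) of the genes reported from each list, on the deposited scale, with 1 row for the 8 genes tested of the 10 and 1 row for each list of other genes; filled points have an adjusted p under 0.05, the dashed line is the median of all genes tested. Of the genes shown, Thbs1, Ccn1 and Sdc4 lie farthest to the right, and Omd is the only gene called lower.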

How the data were processed

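RNA-seq of 3 sham and 3 MI/RI rat myocardium samples was analysed. Libraries were made from total RNA with a stranded kit, and the submitters' processing notes name STAR and HTSeq. Their versions, the genome build, the annotation and the strand setting of the counting are not given in the sources used here. The authors deposited FPKM values for 30452 genes, of which 7092 had no symbol. Rows with the same symbol were summed, which gave 28293 genes. Absolute depth is unknown. From the steps in the FPKM of low genes, the relative depth was 1, 1.18 and 1.14 in sham and 0.873, 0.935 and 0.881 in MI/RI. Fragment numbers are the smallest whole numbers that fit the 6 values of a gene within 0.03, which were found for no number up to 20000 in Sparc and Dcn.

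Log2(FPKM + 0.1) of the 10942 genes with a mean of at least 0.5 FPKM was fitted in R 4.3.3 with limma 3.58.1 (functions lmFit and eBayes, the latter with a trend), with Benjamini-Hochberg adjustment and a threshold of 0.05. Fold changes on this scale understate the change of low genes. Single values were also compared by two-sided exact permutation (scipy 1.17.1). Tested on simulated data for this comparison, limma recovered 134 of the 200 genes given a known log2 change of 2 within a table of 10942, and 4 of its 138 calls were false. With the numbers from the labels, deviations from the group means correlated between same-numbered samples at 0.203, 0.117 and 0.118 for numbers 1 to 3. For numbers 1 and 2 this was above the highest correlation of the sham sample with a differently numbered MI/RI sample (-0.075 and -0.019). For number 3 it was not (0.120).

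The 10 genes and the gene lists were chosen with earlier results of these data known. From each list other than cell type markers, up to 2 called genes at either end of the log2 fold changes were named, and for the genes of the 10 with the largest and smallest log2 fold change the 3 most correlated genes. In the TGF-beta list, 1 gene that this rule names is not reported here singly or plotted, and it stays in the counts. Alternatives were other pseudocounts, filters, scalings, a model without trend, a replicate block, the highest row per symbol and leaving out each sample. Those for the other lists and their named genes, and marker sums without 1 gene, were chosen after seeing the data.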

Additional observations from a re-analysis of the deposited data

How the results depend on the processing

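With 3 samples a group, the 95% intervals of the genes not called reached 0.55 or more above 0 on the log2 scale, so rises of that size remain possible. FPKM gives no absolute depth. The call of Thbs1 held under all 17 alternatives. With the filter at a mean of at least 5 FPKM, 1892 of 3784 genes (50%) were called higher and 166 (4.39%) lower. Their median log2 fold change was 0.66. From the other matrix lists, 15 genes were then called higher and 0 lower. Rescaled to TPM, 3449 genes (31.5%) were called higher and 504 (4.61%) lower. Of the 8 tested among the 10, 3 were then called higher (Thbs1, Postn and Lum). Centred on the median gene, 2020 genes (18.5%) were called higher and 1554 (14.2%) lower, with 12 matrix-list genes higher and 3 lower. The log2 fold changes of Sparc (-0.092), Lox (-0.15) and Dcn (-0.23) turned negative. After quantile normalization 1441 genes were called higher and 1559 lower, 2 of the 10 lower (Sparc and Dcn), and 6 matrix-list genes higher and 7 lower, with Sparc at -1.05, Fn1 at -0.25, Dcn at -0.97 and Lum at -0.16. Rescaled without the mitochondrial mRNAs, 793 genes were called higher and 2857 lower, 1 of the 10 lower (Dcn), and 4 matrix-list genes higher and 11 lower, with Sparc at -0.63, Fn1 at -0.51, Lox at -0.62, Dcn at -0.77 and Lum at -0.19. Of all calls, 77.6% were higher on the deposited scale, 87.3% after TPM, 56.5% after centring, 48.0% after quantile normalization, 21.7% without the mitochondrial mRNAs and 91.9% among genes of at least 5 FPKM.

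Leaving out 1 sample gave 1528 to 2557 genes called higher and 309 to 881 lower, 1 to 2 of the 10 higher (Spp1 joined without sham sample 1, Postn without MI/RI sample 1), and 9 to 17 matrix-list genes higher (9 without sham sample 3) and 1 to 3 lower. The log2 fold change of Dcn then ran from -0.12 to 0.13 (below 0 without sham sample 1 or MI/RI sample 1), and that of Lox from -0.067 to 0.23 (below 0 without sham sample 3 or MI/RI sample 2, -0.035). Relative to the fibroblast markers, the difference turned for Thbs4 (-0.0050) and Spp1 (-0.085) with a pseudocount of 1, for Fn1 (0.061) and Lox (0.38) after quantile normalization and, over the fits without 1 sample, for Spp1 (-0.064 to 2.16, below 0 without sham sample 3) and Fn1 (-0.35 to 0.025, above 0 without MI/RI sample 3). The replicate block gave 3085 genes called higher and 895 lower, 1 of the 10 higher, and 20 matrix-list genes higher and 2 lower, and it changed no other call among the 10. Where a result turned or a call was lost, the cause was not tested.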
